A study of Drosophila melanogaster with 18 samples.

Results

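The lipoprotein carriers and their receptors examined here are 7 genes: apolpp, Apoltp, Mtp, LpR1, LpR2, GLaz and NLaz. They are 7 of 11982 genes that the array names through a probe set with a single gene symbol, and each was read from its brightest probe set over 18 arrays. The set was put together with the fall of apolpp in late R7 cells in view, so the R7 values of apolpp are given as a description without a test. Total RNA came from 2 Drosophila melanogaster cell lines, R7 and R3, followed from early culture towards established lines, and was hybridised to Affymetrix 3' expression arrays. No genotype, tissue of origin or treatment is given in the labels. Both lines grew in Schneider's medium with fetal bovine serum and antibiotics in 25 cm2 flasks. The R7 groups are early (P2 in 2 replicates and P3, 3 arrays), P4 (1 array, kept apart because the stated early and intermediate stages both include it), intermediate (P7 and P8, 2 arrays) and late (P16, P17 and P19, 3 arrays). The R3 groups are early (P2 in 2 replicates), intermediate (P5 to P8, 4 arrays) and late (P16, P17 and P19, 3 arrays). P denotes the passage number. Each line is followed through successive passages, and nothing in the labels describes separate cultures, so the p-values reflect variation among passages and arrays of a line and not among independent cultures.

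Insects move lipid through the haemolymph on lipophorin, a lipoprotein that is reused as a shuttle. The fat body makes the lipophorin scaffold from the apolpp precursor, Mtp loads it with lipid in the endoplasmic reticulum, and the lipid transfer particle built on Apoltp moves lipid between the gut, lipophorin and other tissues. LpR1 and LpR2 are receptors of the LDL receptor family that act in lipid uptake by tissues such as the ovary and the imaginal discs. GLaz and NLaz are secreted lipocalins related to vertebrate apolipoprotein D that bind small hydrophobic molecules, and NLaz acts downstream of JNK signalling in stress and metabolic control. GLaz and NLaz take their names from glia and neurons.

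Values are intensity, the brightness of a probe set on a linear scale, as deposited. They carry no calibration between probe sets, so a level is compared between arrays and not between genes. Values below 32 were treated as 32, and log2 differences were tested with limma across the 10200 probe sets above 32 on at least 2 arrays, with a call at a Benjamini-Hochberg adjusted p under 0.05. Folds between groups come from the mean log2 values with this floor, so they differ from ratios of the printed intensity means. A difference against a group whose arrays all lie below 32 is a lower bound that depends on this floor, written "at least". All 7 genes passed this filter, and 5 of them lay above 32 on all 18 arrays. The exceptions were apolpp, above 32 on 15 arrays, and NLaz, above 32 on 12. Array medians lay between 23.2 and 30.2, and for arrays it is their number that limits precision. In R7 the medians were higher on the early arrays (27.5, 29.1 and 30.2) than on the late arrays (24.3, 26.2 and 23.2).

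Some R3 arrays stood apart from their labels. The P2 replicates of R3 correlated with each other at r = 0.951 across probe sets, with 226 probe sets more than 4-fold apart, whereas the P2 replicates of R7 correlated at 0.997 with none that far apart. R3 P2 replicate 1 resembled R3 P19 (r = 0.994, 1 probe set more than 4-fold apart), R3 P2 replicate 2 correlated with R3 P7 at 0.985, and R3 P19 correlated with R3 P17 at only 0.939. The labels do not tell whether any R3 array carries the label of another passage, and this was not tested, so early and late R3 are used as labelled. R3 results are therefore given with all arrays and again without R3 P2 replicate 2 and R3 P19. These 2 arrays were picked from their expression, and the fit without them keeps 1 early R3 array, which is assumed to vary like the other groups.

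apolpp (Entrez gene 43827) encodes the precursor of apolipophorins I and II. In R7 its intensity was 1789.8 and 1532 in the P2 replicates, 247 at P3, 78.0 at P4, 47.4 at P7, 47.1 at P8, 19.1 at P16, 9.22 at P17 and 18.4 at P19. The early arrays were the highest, and the 3 late arrays were all below 32. The mean was 15.6 ± 5.50 in late R7 and 1189.8 ± 826 in early R7 (SD, n = 3 arrays each), at least 27.5-fold lower, which is the difference the gene was chosen on. The largest step lay inside the early group, where P3 was 6.19-fold below P2 replicate 2. P4 was 3.17-fold below P3, P7 was 1.64-fold below P4, and P8 was within 1.01-fold of P7. Most of the fall was thus already present at the intermediate stage, where the mean was 47.3 ± 0.262 (SD, n = 2), or 18.6-fold below early.

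In R3, apolpp was 530 in P2 replicate 1 and 54.9 in P2 replicate 2, 50.1 at P5, 32.8 at P6, 33.5 at P7, 32.9 at P8, 32.4 at P16, 47.8 at P17 and 450 at P19. Only P2 replicate 1 and P19 were high, and the other 7 arrays lay between 32.4 and 54.9. With all arrays the R3 mean was 177 ± 237 late (n = 3) and 292 ± 336 early (SD, n = 2), and the late and early arrays overlapped (log2 -0.94 ± 1.11 SE, limma adjusted p = 0.967). Without P2 replicate 2 and P19, apolpp was 13.5-fold lower in late R3 than in early R3 (log2 -3.75 ± 0.86 SE), and 14.5-fold lower in intermediate than in early R3. For apolpp the arrays left out are the low early one and the high late one, so this fall followed from the choice of arrays. Those values rest on the single remaining early array, and without P2 replicate 1 and P19 no R3 stage comparison called apolpp. At the intermediate stage the lines were not called different, with 47.3 ± 0.262 in R7 (n = 2) and 37.3 ± 8.51 in R3 (SD, n = 4; limma adjusted p = 1). These are bulk RNA measurements, in which fewer cells of a type and less RNA per cell cannot be told apart.

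Apoltp (Entrez gene 34283) encodes the apoprotein of the lipid transfer particle and took a different course. In R7 it was 1326 and 1141 in the P2 replicates, 261 at P3, 119 at P4, 255 at P7, 304 at P8, 1324 at P16, 713 at P17 and 449.7 at P19. The level dipped at P4 and was back near the P2 level at P16, which was 4.36-fold above P8. Late and early R7 arrays overlapped, at 829 ± 449 late and 909 ± 569 early (SD, n = 3 each; log2 0.04 ± 0.69 SE, limma adjusted p = 1). The late R7 arrays all lay above the 2 intermediate ones (log2 1.43 ± 0.77 SE), but the difference was not called (limma adjusted p = 0.405).

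In R3, Apoltp was 339.7 and 565 in the P2 replicates, 1144 at P5, 816 at P6, 933 at P7, 1694 at P8, 1150.4 at P16, 1721 at P17 and 284 at P19. The lowest arrays were again P2 replicate 1 and P19, which for apolpp were the highest of the line. No R3 stage comparison called Apoltp with either set of arrays. At the intermediate stage R7 had 279 ± 34.5 (n = 2) and R3 1147 ± 389 (SD, n = 4), 3.96-fold lower in R7 with no overlap, at an unadjusted p of 0.0180 that did not survive adjustment (limma adjusted p = 0.289).

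Mtp (Entrez gene 35362), the microsomal triglyceride transfer protein that lipidates both apoproteins, varied least of the 7 genes, 2.00-fold between its lowest and highest array. In R7 it was 370 and 318 in the P2 replicates, 239 at P3, 247 at P4, 261 at both P7 and P8, 275 at P16, 229 at P17 and 218 at P19. In R3 it was 229 and 332 in the P2 replicates, 310.3 at P5, 284 at P6, 280.5 at P7, 279 at P8, 264 at P16, 288 at P17 and 185 at P19. The late R7 mean was 241 ± 30.3 and the early R7 mean 309 ± 66.0 (SD, n = 3 each), with overlapping arrays (limma adjusted p = 0.233). In none of the 12 comparisons was Mtp called, with all 18 arrays or without the 2 R3 arrays.

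**Figure D1:**
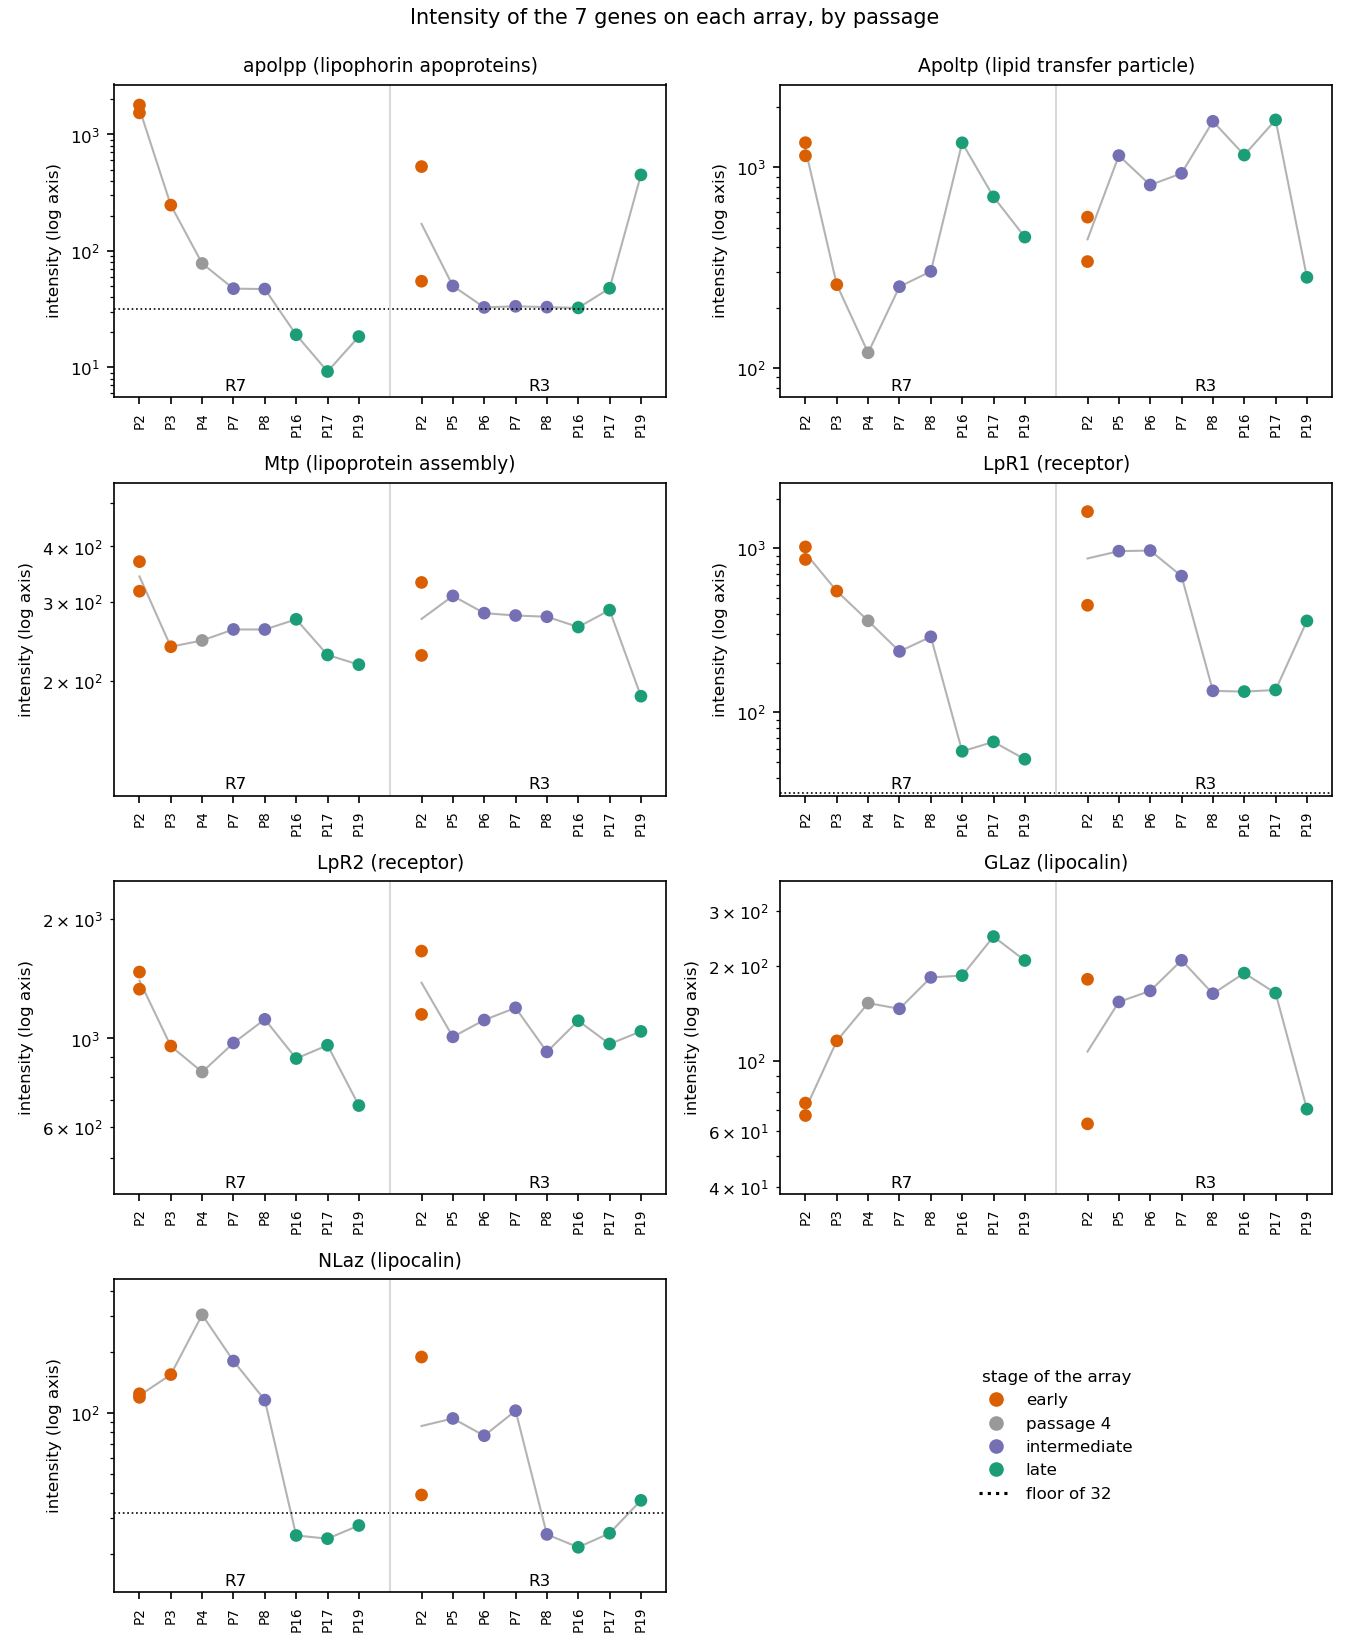
Intensity (log axis) of each of the 7 genes on each array, in passage order, with the R7 arrays left and the R3 arrays right of the vertical line in each panel. Points are single arrays coloured by stage, the grey line joins passages through the geometric mean of the P2 replicates, and the dotted line marks the floor of 32. apolpp reached 1789.8 in early R7 and lay below 32 on the late R7 arrays, while GLaz ran the other way, and the R3 P2 replicates were far apart for apolpp (530 and 54.9).

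Of the receptors, LpR1 (Entrez gene 2768687) fell furthest. In R7 it was 1019 and 854 in the P2 replicates, 548 at P3, 361 at P4, 235 at P7, 288.5 at P8, 57.8 at P16, 66.0 at P17 and 51.7 at P19. Every early array lay above P4, P4 above the intermediate arrays, and those above all late arrays. The mean was 58.5 ± 7.15 in late R7 and 807 ± 239 in early R7 (SD, n = 3 each), 13.4-fold lower (log2 -3.75 ± 0.69 SE, limma adjusted p = 0.00302). The call held in every alternative that could be fitted for the gene, with adjusted p-values from limma between 0.000352 and 0.0157. A second probe set annotated to LpR1 lay between 1.46 and 9.92 on all 18 arrays, below the floor, and gave no information.

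In R3, LpR1 was 449 and 1672 in the P2 replicates, 960.2 at P5, 968 at P6, 676 at P7, 135 at P8, 134 at P16, 137 at P17 and 361 at P19. The largest step down in passage order in R3 was 5.01-fold, between P7 and P8, after a smaller one of 1.43-fold between P6 and P7, and it was followed by near-equal values up to P17. In R7 the largest single step was 4.99-fold, between P8 and P16. The R3 mean was 210.3 ± 130.2 late (n = 3) and 1061 ± 865 early (SD, n = 2), and the late arrays all lay below the early ones, but at an unadjusted p of 0.0133 the difference was not called (limma adjusted p = 0.768). Without P2 replicate 2 and P19 the log2 difference of late and early R3 was -1.73 ± 0.91 SE, against a single early array. In late passages R7 lay below R3 without overlap, 3.22-fold (unadjusted p = 0.0293, limma adjusted p = 0.173).

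LpR2 (Entrez gene 43105) stayed within a 2.44-fold range over the 18 arrays. In R7 it was 1469 and 1329.8 in the P2 replicates, 957 at P3, 824 at P4, 974 at P7, 1117 at P8, 890.4 at P16, 962 at P17 and 678 at P19. In R3 it was 1149 and 1658 in the P2 replicates, 1009.5 at P5, 1113 at P6, 1194 at P7, 925 at P8, 1108 at P16, 969 at P17 and 1042 at P19. The late R7 mean of 844 ± 147 was 1.48-fold below the early R7 mean of 1252 ± 265 (SD, n = 3 each; log2 -0.56 ± 0.18 SE, limma adjusted p = 0.0457). Late and early arrays overlapped, since P17 lay above P3, and this call was lost in 18 alternatives, with adjusted p-values up to 0.278 from limma. These included equal array medians and leaving out R7 P2 replicate 1, P2 replicate 2, P16 or P19.

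Of the lipocalins, GLaz (Entrez gene 36447) was the one gene that rose in R7. It was 73.7 and 67.3 in the P2 replicates, 116 at P3, 153 at P4, 147 at P7, 184 at P8, 187 at P16, 248 at P17 and 209 at P19. No late array fell below any earlier one. The mean was 215 ± 31.2 in late R7 and 85.7 ± 26.5 in early R7 (SD, n = 3 each), 2.56-fold higher (log2 1.36 ± 0.39 SE, limma adjusted p = 0.0295). The call was lost in 7 alternatives, among them leaving out R7 P2 replicate 1, P2 replicate 2, P16, P17 or P19, with adjusted p-values up to 0.110 from limma, and the difference stayed between 1.14 and 1.60 on the log2 scale.

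In R3, GLaz was 63.3 and 182 in the P2 replicates, 154 at P5, 167 at P6, 209 at P7, 164 at P8, 190.2 at P16, 164 at P17 and 70.5 at P19. P2 replicate 1 and P19 were the low arrays, and the other 7 lay between 154 and 209. With all arrays no R3 comparison called GLaz. Without P2 replicate 2 and P19 it was 2.79-fold higher in late than in early R3 (log2 1.48 ± 0.30 SE), and 2.72-fold higher in intermediate than in early R3. This is again against a single early array. The arrays left out are the high early one and the low late one, so this rise followed from the choice of arrays.

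NLaz (Entrez gene 33324) was at its highest in the middle of the R7 series. It was 124 and 119 in the P2 replicates, 155 at P3, 306 at P4, 180.5 at P7, 116 at P8, 24.7 at P16, 23.8 at P17 and 27.7 at P19. The peak at P4 was 1.98-fold above P3, and the late arrays were all below 32. The mean was 25.4 ± 2.02 in late R7 and 133 ± 19.1 in early R7 (SD, n = 3 each), at least 4.12-fold lower (log2 -2.04 ± 0.49 SE, limma adjusted p = 0.0129). This call held in every alternative tried, with adjusted p-values up to 0.0444 from limma. Against the intermediate mean of 148 ± 45.9 (n = 2), late R7 was at least 4.51-fold lower (limma adjusted p = 0.0413), a call that was lost in 17 alternatives, including leaving out any 1 of the 8 early, intermediate or late R7 arrays.

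In R3, NLaz was 39.2 and 189 in the P2 replicates, 93.8 at P5, 77.1 at P6, 102 at P7, 25.0 at P8, 21.6 at P16, 25.4 at P17 and 36.9 at P19. As for LpR1, the drop lay between P7 and P8, and P8, P16 and P17 were below 32. The R3 mean was 27.9 ± 7.96 late (n = 3) and 114 ± 106 early (SD, n = 2), without overlap, at an unadjusted p of 0.0282 that did not survive adjustment (limma adjusted p = 0.805). NLaz was also lower in late than in early R3 with P2 replicate 1 left out, but the early group is then the single array at 189. Without P2 replicate 2 and P19 the single early array is the one at 39.2. The log2 difference was then -0.29 ± 0.53 SE, bounded by the floor.

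Taking the 7 genes as a group, 1 rose and 3 fell among the 6 that could be tested between late and early R7. Among all tested probe sets 19.9% were called in that comparison. The median log2 difference over the 6 tested genes, apolpp left out, was -0.45, beside -0.03 over all tested probe sets. Between intermediate and early R7 limma called none of the 6, beside 2.48% of all tested probe sets. GLaz alone had an unadjusted p under 0.05 there, beside 1980 of all 10200 tested probe sets. Between late and intermediate R7 limma called 1 of the 6, NLaz, beside 4.68% of all tested. On a slope against log2 of the passage number, LpR1 (-1.25 per doubling of passage number, limma adjusted p = 0.00106), NLaz (-0.71, adjusted p = 0.0265), LpR2 (-0.18, adjusted p = 0.0452) and GLaz (0.46, adjusted p = 0.0209) were called in R7, 4 of the 6, beside 19.6% of all tested. Of these slopes, LpR1 was called in every alternative that could be fitted for it, and the others were each lost in 5 to 14 of them, including fits that left out a single R7 array.

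For R3 with all arrays, limma called none of the 7 genes in late against early, intermediate against early or late against intermediate passages, nor on the slope, and it called 0% of all tested probe sets in each. At an unadjusted p under 0.05 stood LpR1 and NLaz in late against early, in late against intermediate and on the slope. No gene stood there in intermediate against early. Of all 10200 tested probe sets, 613, 425, 582 and 730 had an unadjusted p under 0.05 in these results, in that order. Without R3 P2 replicate 2 and R3 P19, 10.1% of tested probe sets were called in late against early, including apolpp and GLaz, and 9.54% in intermediate against early, including the same 2 genes. In that fit late against intermediate called 0.0894% of probe sets and the slope 2.35%, and neither called any of the 7.

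Between the lines, limma called none of the genes that could be tested. The calls over all probe sets came to 1.07% for R7 against R3 in early passages, 1.88% in intermediate passages, 7.63% in late passages and 2.91% for the difference between the lines in the change from early to late. Unadjusted p-values under 0.05 stood at 0, 1 (Apoltp), 1 (LpR1) and 0 of the genes in that order. Over all 10200 tested probe sets such p-values stood at 961, 1111, 2114 and 1747. Without R3 P2 replicate 2 and R3 P19 the same percentages were 1.69%, 3.89%, 11.2% and 4.08%, with none of the genes called. The early comparison and the difference in the change from early to late then rest on 1 early R3 array. The fall of LpR1 in R7 and its uncalled fall in R3 were thus not shown to differ (log2 difference -1.54 ± 1.03 SE, limma adjusted p = 0.484), nor were those of NLaz (-0.68 ± 0.74 SE, adjusted p = 0.683), nor the changes of GLaz (1.08 ± 0.59 SE, adjusted p = 0.378).

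**Figure D2:**
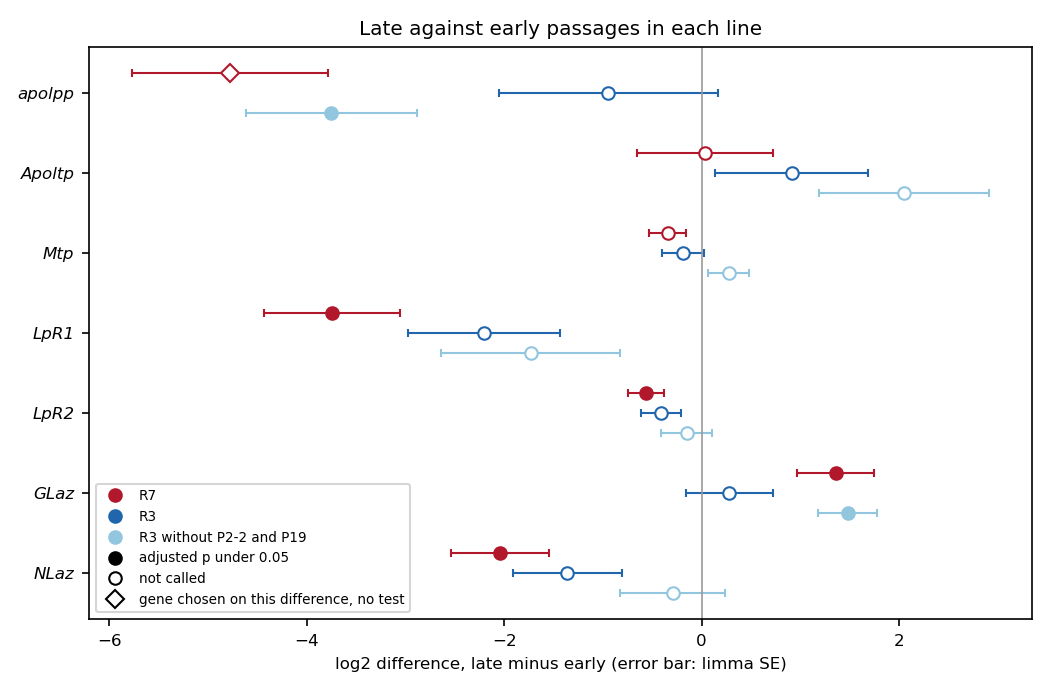
Log2 difference between late and early passages for each of the 7 genes in R7, in R3 with all arrays, and in R3 without P2 replicate 2 and P19, with limma standard errors. LpR1 and NLaz lay below 0 in all 3 estimates. The R3 estimates of apolpp (-0.94 and -3.75), GLaz (0.28 and 1.48) and NLaz (-1.36 and -0.29) depended on which R3 arrays were used. Without P2 replicate 2 and P19 the R3 estimates, filled or open, rest on 1 early array.

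Set in order of group means, the genes had different high points. For apolpp the order ran from early R7 (1189.8) through early R3 (292), late R3 (177), R7 P4 (78.0), intermediate R7 (47.3) and intermediate R3 (37.3) to late R7 (15.6). Neighbours in this order overlapped except R7 P4 over intermediate R7, and intermediate R3 over late R7. For LpR1 the 2 early groups led and late R7 came last, below late R3 without overlap. For GLaz late R7 led (215) and early R7 came last (85.7), and every pair of neighbours overlapped. For Apoltp intermediate R3 led (1147), and intermediate R7 (279) and R7 P4 (119) came last, each below the group before it without overlap. For NLaz R7 P4 led (306), without overlap with the next group, and late R3 (27.9) and late R7 (25.4) came last and overlapped.

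Among pairs of the 7 genes, apolpp with GLaz (r = -0.957) and LpR1 with NLaz (0.840) had the strongest correlations. These 2 values are over 18 arrays after subtracting the mean of each line, with values below 32 at the floor. The R7 values of apolpp hold the fall that the gene was chosen on. Pearson's r of the log2 values of apolpp and GLaz was -0.967 over the 9 R7 arrays and -0.975 over the 9 R3 arrays. Leaving out the 2 arrays farthest from the median of apolpp, it was -0.866 in R7, where these are the P2 replicates, and -0.363 in R3, where they are P2 replicate 1 and P19, so in R3 the relation rests on those 2 arrays. LpR1 and NLaz moved together, with r = 0.795 in R7 and 0.911 in R3, and 0.582 and 0.870 when the 2 arrays farthest for LpR1 were left out of each line. apolpp and LpR1 gave 0.862 in R7 and 0.048 in R3, and 0.831 and 0.403 without the 2 arrays farthest for apolpp. apolpp and Apoltp gave 0.387 in R7 and -0.850 in R3, and Mtp and LpR2 gave 0.872 and 0.324. The points are successive passages of a line and not independent samples, so these values are descriptions without a test.

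**Figure D3:**
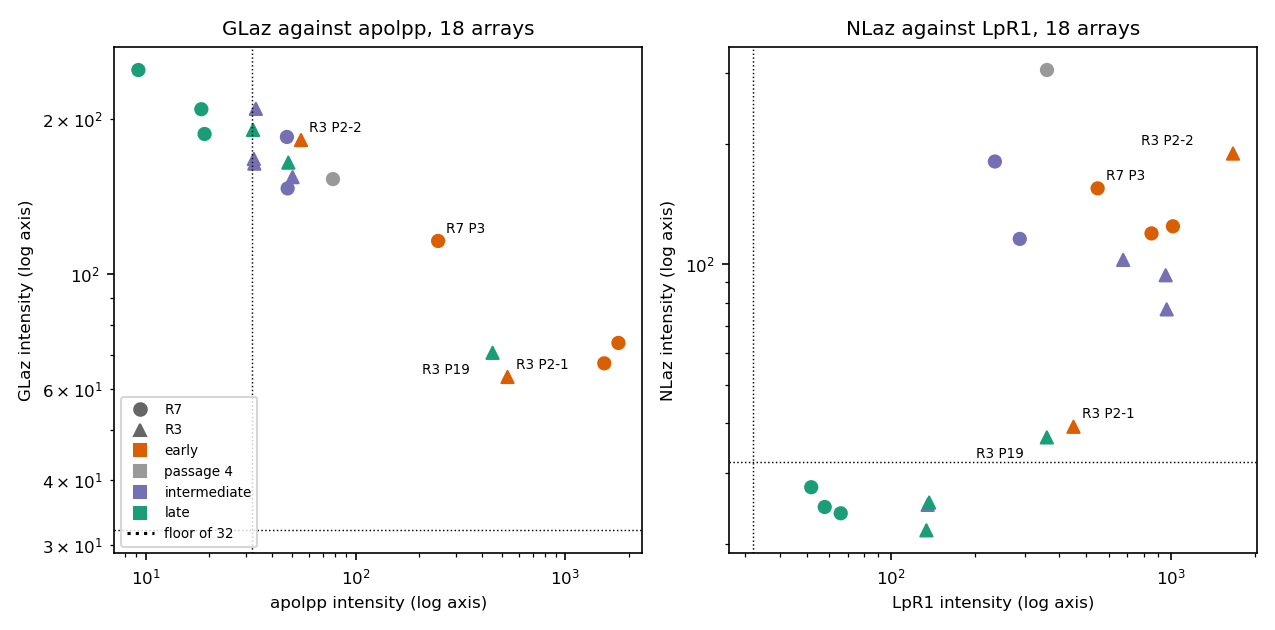
Intensity of GLaz against apolpp (left) and of NLaz against LpR1 (right) on the 18 arrays, both axes logarithmic, circles for R7, triangles for R3, colours for the stage and dotted lines at the floor of 32. High apolpp goes with low GLaz, with R3 P2 replicate 1 and R3 P19 beside each other, and the arrays with NLaz below 32 are those with LpR1 at 137 or less.

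Among 7926 genes compared over the 18 arrays after subtracting the mean of each line, the profile nearest to apolpp was that of CG5973 (r = 0.987), followed by CG17549, CG4716, CG10799 and CG15369. Nearest to Apoltp were dmGlut (r = 0.939), CG13795 and eater, a phagocytosis receptor of haemocytes (0.921), with fat-spondin and CG5399 after them. Mtp was nearest to Strica (r = 0.931), followed by sel, LManII, Sec24CD and LManI. Sec24CD (0.909) is a COPII coat subunit of export from the endoplasmic reticulum. LpR1 was nearest to CG8539 (r = 0.909), then CG11893, Dyrk2, Septin4 and CG30339. LpR2 was nearest to yellow-f (0.897), then CG17760, CG5112, CG10764 and sp3. GLaz was nearest to CG3556 (r = 0.977), followed by CG15861, kra, CG4666 and Pvf2, a PDGF- and VEGF-related ligand (0.958). NLaz was nearest to Sgsh (0.960), followed by jdp, CG5323, daw, an activin-like ligand (0.920), and Ranbp21.

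Genes that act beside these carriers were counted in late against early R7, where 19.9% of all tested probe sets were called. Among those for folding, cleavage and export of lipoproteins and their receptors limma called 0 of 5 tested (1 at an unadjusted p under 0.05). In the same comparison 3368 of all 10200 tested probe sets had an unadjusted p under 0.05. Of 3 other LDL receptor family members and co-receptors, Cubn2 and Amnionless, which in other animals form a protein uptake receptor together, were called higher. Cubn2 was 104 at P16, 91.3 at P17 and 394 at P19 in late R7, against 40.3, 32.9 and 20.8 in early R7 (log2 2.15 ± 0.38 SE, limma adjusted p = 0.00242). Amnionless was 91.8, 82.5 and 409 on the same late arrays, against 33.7, 37.1 and 15.7 in early R7 (log2 2.09 ± 0.42 SE, limma adjusted p = 0.00484). Both lost the call when only the compared arrays were fitted (limma adjusted p = 0.0747 and 0.0991), Amnionless also with a floor of 64, and P19 was the highest array for each. Without R7 P19 the log2 differences were 1.48 for Cubn2 and 1.35 for Amnionless, and both were still called.

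Of the sterol carriers, 4 of 7 tested fell and none rose. Npc2 proteins are small secreted or lysosomal proteins that bind sterols. Npc2g had 18.1 ± 6.97 in late R7 and 466 ± 316 in early R7 (SD, n = 3 each), at least 10.9-fold lower (limma adjusted p = 0.0125), a call lost without R7 P2 replicate 1 or replicate 2 (up to 0.0816), as was that of Npc2h. Npc2b was at least 3.72-fold lower (limma adjusted p = 0.00842) and Npc2f at least 1.86-fold lower (limma adjusted p = 2.3e-07), and both calls held in each alternative in which they could be tested. With a floor of 64 Npc2f could not be tested, and leaving out the dimmest probe sets removed both. The list median was -0.90 on the log2 scale, beside -0.03 over all tested probe sets. This median is the value of Npc2f and is bounded by the floor.

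In lipid storage, 1 of 8 tested rose and 1 fell. Lpin, the phosphatidate phosphatase that makes diacylglycerol, was 98.1, 97.9 and 89.7 in late R7, against 45.0, 39.4 and 41.4 in early R7 (log2 1.18 ± 0.08 SE, limma adjusted p = 1.5e-06). Lip4, a lipase, had 42.6 ± 12.2 in late R7 and 96.6 ± 31.4 in early R7 (SD, n = 3 each; limma adjusted p = 0.0106, lost without R7 P2 replicate 2 or P19). Limma called 0 of 7 in fatty acid synthesis (3 at an unadjusted p under 0.05, beside 3368 of all 10200 tested probe sets). It called 1 of 3 in fatty acid uptake, Acbp2, an acyl-CoA binding protein that was lower at 12.5 ± 1.78 in late R7 against 166 ± 110 in early R7 (SD, n = 3 each; limma adjusted p = 0.0130, lost without R7 P2 replicate 1 or replicate 2). Of 4 CD36-type receptors limma called 1, santa-maria, at 16.6 ± 4.46 in late R7 and 45.3 ± 4.79 in early R7 (SD, n = 3 each), at least 1.41-fold lower. It lay above 32 on 3 arrays only, the early R7 arrays. It was thus tested only through the group where it is high, so its call is not independent evidence of a fall.

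Of 7 genes of JNK signalling, the pathway upstream of NLaz, 1 rose and none fell, beside 19.9% of all tested probe sets called. It was puc, the JNK phosphatase and a target of the pathway, at 1165, 1106 and 1306 in late R7 against 757, 688 and 627 in early R7 (log2 0.79 ± 0.12 SE, limma adjusted p = 0.000783). The late minus early difference of puc was larger in R7 than in R3 (log2 0.84 ± 0.18 SE, limma adjusted p = 0.0202). NLaz lay below 32 on the late R7 arrays, and the part of JNK signalling in the values of NLaz was not tested.

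Markers of cell types known for these genes moved in R7 as well. Of 5 tested fat body markers 3 were called lower in late than in early R7, beside 19.9% of all tested probe sets called. They were Tsf1, an iron-binding transferrin, the yolk protein Yp3, and Fbp1, a receptor for larval storage proteins. Fbp1 lay above 32 on 2 arrays only, the R7 P2 replicates at 103 and 111. It was thus tested only through the group where it is high, and could only be called lower in late R7. The call of Fbp1 was lost without any 1 of the 3 late arrays, and that of Yp3 with P4 counted as early. Tsf1 had 53.1 ± 28.6 in late R7 and 708 ± 306 in early R7 (SD, n = 3 each; limma adjusted p = 0.00232), but its highest value was 2794 at P4, where apolpp was already at 78.0. The summed intensity of the 7 fat body markers with a probe set lay between 774 and 1279.9 in early R7, at 2907 at P4, between 1665 and 2581 in intermediate R7 and between 111 and 187 in late R7, against 109.98 to 405 in R3. Tsf1 alone gave 2794 of the 2907 at P4, where it was the only one of these markers above 32, and Yp3 was 25.0 at P4 against 94.0 at P3. The storage protein gene Lsp2 and the yolk protein gene Yp1 were below 32 on all 18 arrays. The part of the fat body markers in the values of apolpp was not tested.

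Of 13 tested haemocyte markers 6 were called lower and none higher in late than in early R7, beside 19.9% of all tested probe sets called. Ppn, NimC1 and He were the ones with the smallest adjusted p. The calls of the other 3 (Hml, Pxn and PPO2) were lost without R7 P2 replicate 1 or replicate 2. The list median was -1.23 on the log2 scale, beside -0.03 over all tested probe sets. The summed intensity of the 14 haemocyte markers lay between 11396 and 23548 in early R7, at 7839 at P4, between 10865 and 11476 in intermediate R7 and between 10413 and 11909 in late R7. The collagen genes Col4a1 and vkg, neither of them called, carried most of the late sum, with 4343 and 4919 of the 11909 at P16. Across the R3 interval in which LpR1 and NLaz dropped, haemocyte markers moved in both directions, as in these examples chosen after their values were seen. He, a haemocyte surface protein, was 125 at R3 P8 against 918 at R3 P7, and PPO2, a prophenoloxidase, 131 against 722, whereas Hml, a clotting protein, was 516 at R3 P8 against 148 at R3 P7, and eater 371 against 218. Limma called 0 of 6 glial markers (3 at an unadjusted p under 0.05) and 0 of 3 neuronal markers (1). Both counts are for late against early R7, where 3368 of all 10200 tested probe sets had an unadjusted p under 0.05. The summed glial intensity lay between 3063 and 4030.4 in late R7 and between 3527 and 3956 in early R7. The part of the haemocyte markers in the values of LpR1 and NLaz was not tested.

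**Figure D4:**
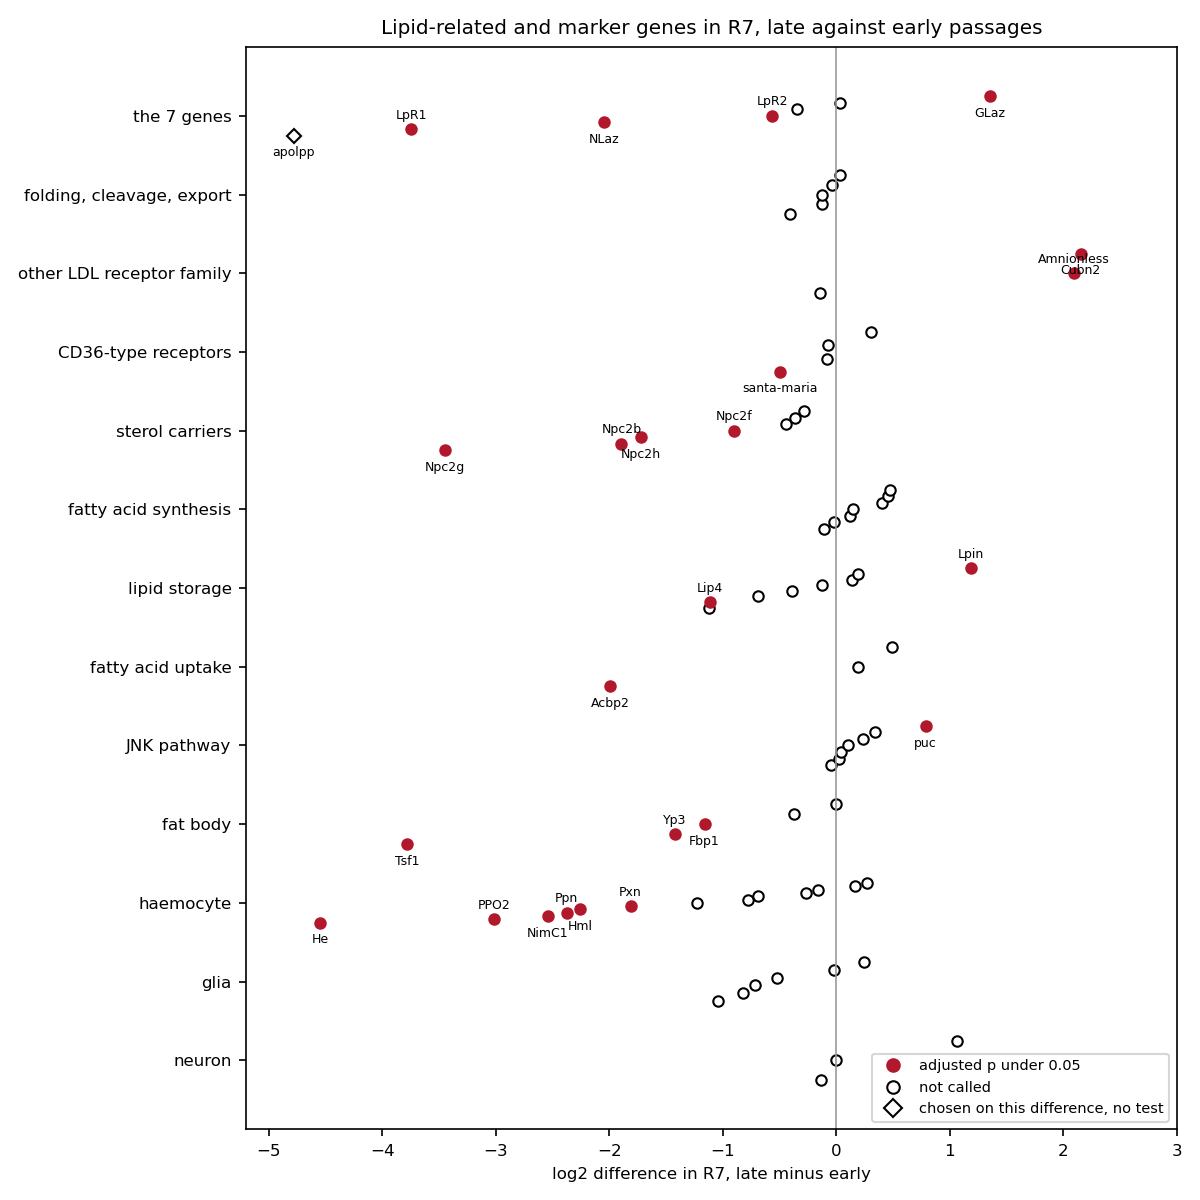
Log2 difference between late and early R7 for the 7 genes and for each tested gene of 12 further lists, 1 row per list, filled where limma gave an adjusted p under 0.05, open where not, and a diamond for apolpp, which was chosen on this difference. LpR1, NLaz and GLaz lie outside most of the other lipid genes, but Cubn2 (2.15) and Amnionless (2.09) lie above GLaz (1.36). Npc2g (-3.45) lies below NLaz (-2.04), both bounded by the floor. Called falls are also seen among sterol carriers, fat body markers and haemocyte markers.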

How the data were processed

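Total RNA of 18 samples (9 per line) was measured on Affymetrix 3' arrays with biotin-labelled cRNA, per the labels. The authors deposited 1 linear intensity for each probe set, from 0.82 to 14634, summarised and scaled by the authors with a method not given in the sources used here. Of 18952 probe sets, 183 controls were left out. Gene names came from the platform annotation, updated through Entrez identifiers, and 13647 probe sets had 1 symbol.

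Values below 32 were set to 32 before log2. Groups were compared in 1 limma fit (limma 3.58.1, R 4.3.3, lmFit and eBayes) of all 18 arrays (7 groups, 11 residual degrees of freedom), and slopes on log2 passage per line in a second fit with 14. P-values were adjusted by Benjamini-Hochberg across 10200 tested probe sets. The procedure was tested on simulated data. Figures used Python 3.11.15 and matplotlib 3.10.9.

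The 7 genes and the 12 further lists were chosen with earlier results of these data known. All 7 were named, with the 5 most similar genes of each by correlation and up to 3 called genes per list with the smallest adjusted p. P2 replicate numbers did not pair the lines (r = -0.009 between the replicate differences of R7 and R3). Alternatives were other scalings, floors of 16 and 64, other filters, a variance trend, other probe sets, P4 in either stage, the compared arrays alone, linear passage, a replicate block, leaving out each array, and leaving out R3 arrays that stood apart. Leaving out R3 P2 replicate 1 with R3 P19 was chosen after seeing the data.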

Additional observations from a re-analysis of the deposited data

Results flagged for a closer look

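Among the 4 intermediate R3 arrays, P5 lay apart from the other 3 for apolpp, with an intensity of 50.1, a gap of 0.958 of the group's range. It also lay apart for Mtp, with 310.3 and a gap of 0.835 of the range. Both are the highest values of the group and P5 is its earliest passage, and chance alone marks about 1 in 20 such groups.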

How the results depend on the processing

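The number of the 7 genes called kept within 1.5 times its value under quantile normalization, a variance trend and leaving out the 30% dimmest probe sets, and no called value reversed. Late against early R7 called 4 genes, and 2 with all non-control probe sets tested or with P4 as early, and 2 to 4 when single arrays were left out. Late against intermediate R7 called 1, but 0 with equal array medians, floors of 16 or 64, all probe sets or P4 as early, 2 with P4 as intermediate, and 0 to 2 when single arrays were left out. The R7 slope called 4, but 1 with all probe sets, 2 with only the line's arrays or linear passage, and 2 to 4 when single arrays were left out. Without R3 P2 replicate 2 and R3 P19, intermediate against early R7 called 1 (GLaz) in place of 0. Late and intermediate against early R3 then rest on 1 early array, and are given above as sizes only. Without R3 P2 replicate 1 and R3 P19, the R3 slope called 1 gene (LpR1) in place of 0. Early R7 against R3 and the difference between the lines in late minus early then rest on 1 early R3 array. Late against early R3 and late R7 against R3 each called 0 to 1 when single arrays were left out. With the replicate block, late against early R7 called 3 genes, without LpR2. Over all probe sets, the contrast R7 late minus early called 2031, and between 995 (without R7 P19) and 2989 (without R3 P2 replicate 2 and R3 P19) under the alternatives. Values that were not called changed sign in 73 of 2064 cases. The cause of these changes was not tested. Intensity near the floor limits late R7 apolpp and NLaz, whose falls are lower bounds.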
